A study of Mus musculus with 27 samples.

Results

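Whole-liver RNA of male mice that had received a control AAV was compared between 3 mice after 4 weeks of resolution (Res) and 3 mice still on Western diet with alcohol (WDA). The comparison holds 6 of the 27 mice of the series. Its mice were chosen by their labels alone: Res mice 7, 8 and 9 carry the number of experiment 12, and WDA mice 19, 20 and 21 carry the number of experiment 11. The comparison asks what alcohol cessation and a return to chow changed in the male liver transcriptome with the *Kdm5b* gene left intact.

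All 6 mice were *Kdm5b* fl/fl males, and no Cre was given to them, so both groups are called WT. *Kdm5b* encodes a demethylase of histone H3 lysine 4. The sample labels give WDA mice AAV8-control with 8 weeks of WDA, and Res mice 16 weeks of WDA, AAV-control and 4 weeks of resolution, whereas the study's methods describe WDA feeding for longer than 8 weeks. In resolution, alcohol water and Western diet were replaced with plain water and chow. According to the methods, the Res mice also had a surgical liver biopsy at the switch and received the vector 1 day later. Stage, experiment number, feeding time, biopsy and vector timing therefore coincide and cannot be told apart, and the sources used here give neither the hour of tissue collection nor whether mice had been fasted. Each library came from 1 mouse, and no mouse number is shared between the 2 groups.

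Hepatocytes burn alcohol mainly through alcohol and aldehyde dehydrogenases, and a diet rich in fat and sugar drives them to make and store fat and to send out cholesterol into bile. They also carry a daily clock, in which BMAL1 (*Arntl*) with CLOCK or NPAS2 switches on the repressors REV-ERB (*Nr1d1*, *Nr1d2*), PER and CRY, and these shut the activators down again. Liver cells answer unfolded protein with chaperones in the cytosol and the endoplasmic reticulum, and answer injury or infection with acute phase proteins that are secreted to the blood.

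The libraries held 17406266 to 18727004 estimated counts, and 12107 to 13058 genes had at least 10 counts. The unit of levels is CPM, each count relative to the TMM-scaled total of its library. TMM scaling assumes that most genes do not differ. Hepatocyte markers were at the top of every library, with *Alb* between 56294 and 79067 CPM, and the muscle and kidney markers *Acta1*, *Ckm* and *Umod* were at or near 0. Res mouse 9 stood apart: its mean correlation with its own group was 0.970, against 0.979 to 0.990 in the others, and its 10 most abundant genes took 16.8% of its counts against 18.9% to 23.1%. It also had the lowest Kupffer cell markers (*Clec4f* 29.5 CPM against 70.6 to 100.4) and the highest *Epcam*, a bile duct marker (7.42 CPM against 0.383 to 2.93). In bulk tissue, fewer cells of a type and less RNA per cell cannot be told apart. For several lists and genes that rest on mouse 9, values without it are given as well.

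*Kdm5b* itself was examined first, as the floxed gene. Its level was 23.1, 21.7 and 22.4 CPM in WDA mice 19, 20 and 21, and 17.4, 17.8 and 18.7 CPM in Res mice 7, 8 and 9. The groups did not overlap, but the log2 fold change of -0.32 ± 0.09 (SE) did not pass the threshold (adjusted p = 0.0554). Unless another tool is named, each adjusted p is from the quasi-likelihood test of edgeR, corrected by Benjamini and Hochberg over all genes tested. The *Kdm5b* paralog *Kdm5c* had a log2 fold change of -0.18 (adjusted p = 0.192 in the same test). In the list of 20 H3K4 enzymes, 3 genes rose and 0 fell (15%, beside 11.0% of all genes tested): *Wdr5*, a shared subunit of the methyltransferase complexes (0.38), *Setd7* (0.62) and *Kmt2b* (0.70).

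Across the transcriptome, 12408 genes were tested and 1361 changed at an adjusted p under 0.05 (11.0% of genes tested): 619 were higher (4.99%) and 742 lower (5.98%) after resolution. The genes that rose tended to be scarce ones with large changes, and the genes that fell tended to be abundant ones with smaller changes. Over quartiles of the mean level, from the lowest to the highest, 175, 197, 151 and 96 genes rose, whereas 31, 86, 197 and 428 fell. The median fold was 1.73 among genes that rose and 1.48 among those that fell, and of 330 genes that changed over 2-fold, 223 rose and 107 fell. For 4478 genes (36.1%) every mouse of a group lay above every mouse of the other, and all 1361 called genes were among them. Of the genes that rose, 605 are protein coding, 2 are pseudogenes and 12 had no RefSeq match, and all 742 that fell are protein coding. Functional lists held 212 of the called genes, and 1149 were in none of the 42 lists. Where a functional list is given below without its called share, that share was 17.4% to 58.3%, beside 11.0% of all genes tested. The matrix and protease lists, with 0 calls, are the exceptions.

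The number of calls depended on single mice. It was 1229 without mouse 7, 559 without mouse 8, 1694 without mouse 9, 334 without mouse 19, 274 without mouse 20 and 148 without mouse 21. In these fits 0 of the 1361 genes turned sign. That was nearly fixed in advance, because the groups did not overlap for any called gene, and it is no measure of stability. Without mouse 21, 142 of the 1361 genes (10.4%) were called again, and without mouse 9, 1195 (87.8%) were. The split of higher and lower genes also moved with the scaling: library totals without scaling factors gave 587 higher and 227 lower (72.1% higher, against 45.5%), upper quartile scaling 772 and 569 (57.6%), and limma on the FPKM values 404 and 232 (63.5%). The log2 fold change had a median of 0.02 over all genes, which library totals moved to 0.16, so each change is relative to the TMM scale. Under all 15 alternatives, 40 genes kept their call, 18 of them higher and 22 lower.

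**Figure D1:**
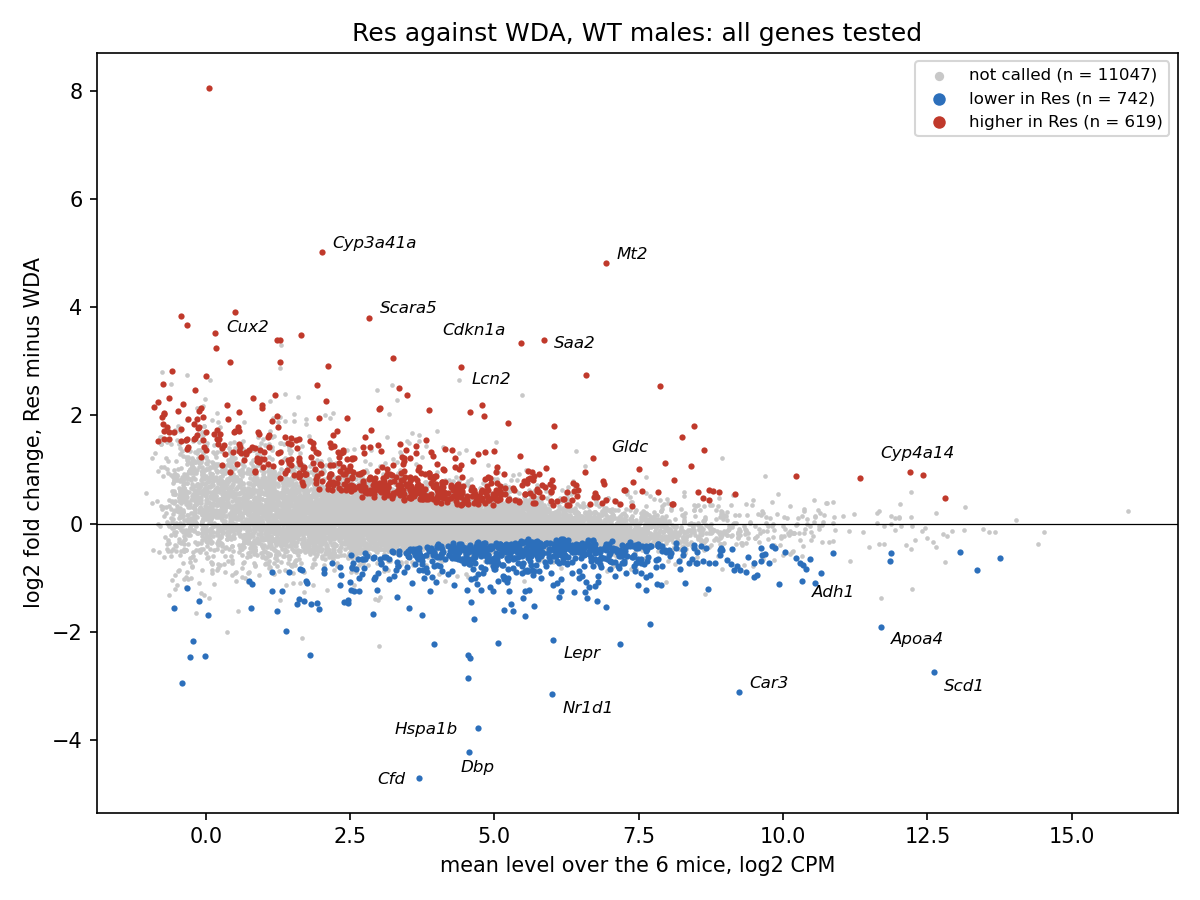
Mean level over the 6 mice (x axis, log2 CPM) against the log2 fold change, Res minus WDA (y axis), for the 12408 genes tested, with 619 genes that rose in red, 742 that fell in blue and the rest in grey. Genes that rose lie mostly at low levels, genes that fell spread up to the highest levels, and *Dbp*, *Nr1d1* and *Scd1* stand out below and *Mt2* and *Saa2* above; the point at 8.06 is *Gm4737*, 1 of 4 called genes with at most 3 counts in every WDA mouse, for which no fold is given.

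Among called genes with a mean level of at least 2 on the log2 CPM scale, the 10 with the largest falls were *Cfd* (-4.70 on the log2 scale), *Dbp*, *Hspa1b*, *Nr1d1*, *Car3* (-3.11), *Hsd3b5* (-2.86), *Scd1*, *Slc22a7*, *Nat8f5* (-2.42) and *Hsd3b3* (-2.23). *Cfd*, complement factor D, a serine protease made largely by fat cells, was 48.7, 13.3 and 11.9 CPM in the WDA mice and 0.758, 1.15 and 0.909 CPM in the Res mice. The fat cell markers *Adipoq* and *Plin1* were at 0 to 0.115 CPM in the WDA mice, and *Plin1* had counts in Res mouse 9 alone (0.909 CPM). *Car3*, a carbonic anhydrase of hepatocytes, fat and muscle, was 1107, 760.5 and 1352 CPM against 136, 153 and 83.1 CPM. At the same minimum level, the 10 genes with the largest rises were *Cyp3a41a* (5.02), *Mt2*, *Scara5* (3.81), *Saa2*, *Cdkn1a* (3.34), *Saa3*, *LOC118567631* (2.91), *Lcn2*, *Saa1* and *Mt1*. *Scara5*, a scavenger receptor that takes up ferritin, was 0.789, 1.51 and 0.460 CPM in the WDA mice and 15.2, 8.81 and 15.1 CPM after resolution. *Cdkn1a*, the cell cycle inhibitor p21, was 11.3, 7.64 and 4.72 CPM against 73.2, 43.2 and 123 CPM. *Cyp3a41a* has near-identical relatives among which reads can be split, and the size of its rise rested on mouse 9 (18.7 CPM, against 2.57 and 1.20 CPM in mice 7 and 8), without which it was 3.03. It did not pass without mouse 19, 20 or 21 (adjusted p = 0.0883, 0.134 and 0.162).

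The circadian genes moved both ways: the activators *Arntl* and *Npas2* rose, and the REV-ERB genes and most called output genes fell. *Dbp*, a clock-driven transcription factor, was 42.9, 38.7 and 52.0 CPM in WDA mice 19, 20 and 21, and 1.69, 1.91 and 3.54 CPM in Res mice 7, 8 and 9. This was a log2 difference of -4.21 ± 0.25 (SE, adjusted p = 3.69e-04), and the lowest WDA mouse lay far above the highest Res mouse. *Nr1d1* (gene 217166, GRCm38.p6 chromosome 11 from 98767932 to 98775377) was 112, 125 and 108 CPM against 10.3, 16.8 and 11.8 CPM, a log2 difference of -3.15 ± 0.18 (SE, adjusted p = 3.69e-04). On the opposite side, *Npas2* was 1.63, 0.893 and 0.633 CPM in the WDA mice and 6.88, 5.36 and 6.62 CPM in the Res mice (2.57, adjusted p = 0.00563). *Arntl* (1.38) and *Cry1* (1.36) also rose, as did *Nfil3*, a repressor that competes with DBP for its sites, which was 16.2, 15.1 and 14 CPM in the WDA mice and 36.9 to 37.0 CPM in the Res mice. Of 15 genes in the core loop 4 rose and 2 fell, and of 20 output genes 2 rose and 6 fell. The lower output genes were *Dbp*, *Bhlhe41* (-1.99), *Usp2* (-1.35), *Wee1* (-1.13), *Coq10b* (-1.08) and *Tef* (-1.07). *Per1* (0.75, adjusted p = 0.315), *Per2* (-0.70, 0.0732) and *Clock* (-0.06, 0.80) did not pass. The median log2 fold change was 0.07 in the core loop and -0.55 in the output list (-0.94 without mouse 9), beside 0.02 over all genes. Without mouse 9, 11 of the 20 output genes fell and 2 rose. *Dbp*, *Nr1d1*, *Nr1d2*, *Npas2* and *Nfil3* kept their call under all 15 alternatives.

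Promoter windows from RefSeq (GRCm38.p6, 250 bases before to 50 after a RefSeq start of the gene) were searched on both strands for the E-box CACGTG, to which BMAL1 and CLOCK bind, and the D-box TTATGTAA, to which DBP and NFIL3 bind. Of 28 tested clock genes with a window, 6 held an E-box (*Bhlhe41*, *Ciart*, *Coq10b*, *Cry1*, *Per1* and *Tef*), or 21.4%, beside 11.7% of all tested genes with a window and 7.15% of all windows. The list was chosen as clock genes, so its share above that of all genes does not bear on the stage difference. Of the 6, *Bhlhe41*, *Coq10b* and *Tef* fell, *Cry1* rose, and *Ciart* and *Per1* were not called. Among called genes with a window, 11.2% of those that rose and 11.3% of those that fell held an E-box. *Coq10b*, which encodes a coenzyme Q-binding protein of mitochondria and fell from 25.1, 17.3 and 21.4 CPM to 10.2, 7.49 and 12.5 CPM, held both motifs and is shown for that reason. Its 250 bases before the start (chr1:55052520-55052769, plus strand) have the D-box, read on the opposite strand, 162 bases and the E-box 78 bases before the start, both in capitals.
Coq10b: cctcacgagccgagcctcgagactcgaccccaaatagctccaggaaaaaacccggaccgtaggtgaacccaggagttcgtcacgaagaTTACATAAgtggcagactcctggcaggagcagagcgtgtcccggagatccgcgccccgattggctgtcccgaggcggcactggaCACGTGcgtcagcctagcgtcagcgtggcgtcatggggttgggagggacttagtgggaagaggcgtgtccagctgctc
A match is a description of the letters, and whether a factor bound there was not tested.

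**Figure D2:**
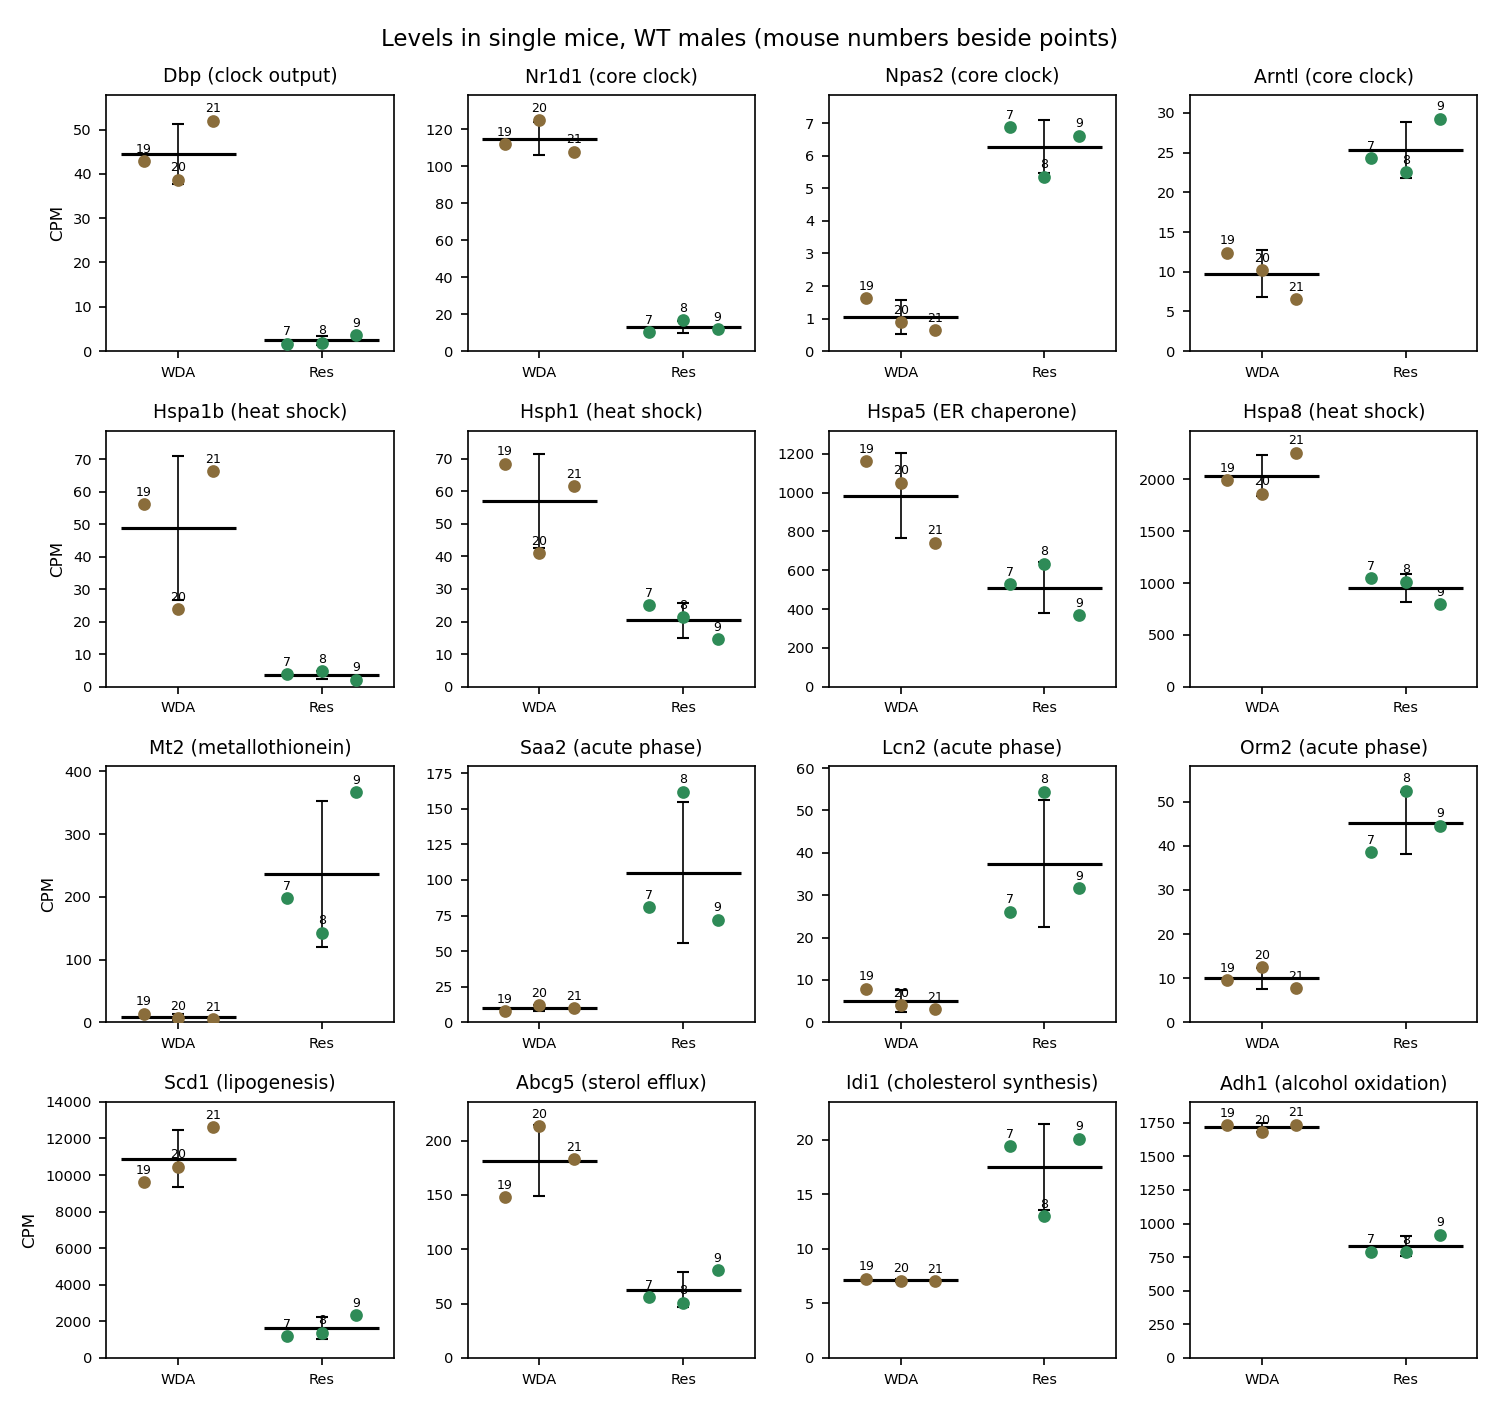
Levels of 16 genes (CPM, y axis of each panel from 0) in single mice, with WDA mice 19, 20 and 21 in brown and Res mice 7, 8 and 9 in green; bars are the mean and SD of 3 mice. In all 16 panels the groups do not overlap, with *Dbp*, *Nr1d1*, *Hspa1b* and *Scd1* near the floor of their axis after resolution and *Mt2*, *Saa2* and *Lcn2* near it on the WDA diet.

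Chaperones of the cytosol were lower after resolution as a group. Of 24 cytosolic heat shock genes 14 fell and 0 rose, and 23 had a negative log2 fold change. The median of the 24 was -0.60, beside 0.02 over all genes. *Hspa1b*, the inducible HSP70, was 56.1, 23.9 and 66.3 CPM in the WDA mice and 3.85, 4.76 and 2.12 CPM in the Res mice, a log2 difference of -3.77 ± 0.43 (SE, adjusted p = 0.00436). Its reads can be split with its near copy *Hspa1a*, which was tested and not called. The constitutive chaperone *Hspa8* was 1989.9, 1864 and 2258 CPM against 1046, 1014 and 797 CPM (-1.10, adjusted p = 0.00678). *Hsph1*, a nucleotide exchange factor of HSP70, was 68.5, 40.9 and 61.5 CPM against 25.1, 21.3 and 14.6 CPM (-1.49, adjusted p = 0.0115). The HSP90 machinery fell too, with *Hsp90aa1* at -1.22, *Hsp90ab1* at -0.56, and the cochaperones *Stip1* at -1.0, *Chordc1* at -1.02, *Fkbp4* at -0.56 and *Ahsa1* at -0.53. The J-domain proteins *Dnajb1* (-1.22) and *Dnaja1* (-0.95), the small heat shock protein *Hspb1* (-0.84), *Bag3* (-0.77) and the mitochondrial *Hspe1* (-0.64) completed the group. Among the Res mice, mouse 9 had the lowest level of *Hspa1b*, *Hspa8*, *Hsph1* and *Hsp90aa1*. Without mouse 21, 6 of the 24 passed, without mouse 9 14 did, with the spread of the 4 male groups 3 did, and DESeq2 called 16.

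The heat shock element, searched as GAANNTTC on both strands, was present in the promoter window of 11 of 18 tested heat shock genes with a window (61.1%), beside 7.09% of all tested genes with a window and 7.86% of all windows. The list was chosen as heat shock genes, so its share above that of all genes does not bear on the stage difference. Among the genes that fell it was in 8 of 11 (72.7%), and among those not called in 3 of 7 (42.9%). These few genes were not tested against each other, and whether a factor bound at the matches was not tested. The windows of *Hspa1b* and *Hspb1* are shown for the strongest fall and for a gene with 2 matches, with the matches in capitals. *Hspa1b* (chr17:34959239-34959488, minus strand) has 1 match 104 bases before its start, and *Hspb1* (chr5:135887669-135887918, plus strand) has matches 117 and 97 bases before its start.
Hspa1b: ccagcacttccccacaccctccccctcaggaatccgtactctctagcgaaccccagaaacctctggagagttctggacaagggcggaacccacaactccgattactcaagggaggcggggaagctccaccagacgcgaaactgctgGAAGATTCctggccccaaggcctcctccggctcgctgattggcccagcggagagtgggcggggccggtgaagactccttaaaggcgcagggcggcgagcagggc
Hspb1: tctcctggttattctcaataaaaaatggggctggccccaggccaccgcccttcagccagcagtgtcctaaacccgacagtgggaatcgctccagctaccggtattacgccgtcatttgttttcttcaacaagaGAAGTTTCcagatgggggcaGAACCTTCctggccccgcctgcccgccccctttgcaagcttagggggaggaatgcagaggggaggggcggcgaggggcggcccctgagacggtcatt

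Folding genes of the endoplasmic reticulum were lower as well. Of 34 genes of this list 13 fell and 0 rose, and the median log2 fold change was -0.58 (-0.52 without mouse 9). *Hspa5*, the luminal HSP70 known as BiP, was 1162, 1050.0 and 741 CPM in the WDA mice and 528, 633 and 369 CPM in the Res mice (-0.95, standard error 0.23, adjusted p = 0.0367). *Hsp90b1*, the luminal HSP90, was 816, 1174 and 885 CPM against 505, 575 and 366 CPM (-0.99, adjusted p = 0.0224). *Manf* (-1.26), *Creld2* (-1.22), the disulfide isomerases *Pdia4* (-0.91) and *P4hb* (-0.84) and the lectin chaperone *Calr* (-0.85) fell, as did *Edem1* (-0.52), *Sel1l* (-0.50) and *Derl1* (-0.46), which act in the disposal of misfolded proteins. *Xbp1*, a transcription factor of the unfolded protein response, had a log2 fold change of -0.17 and did not pass (adjusted p = 0.328). Mouse 9 had the lowest level of *Hspa5*, *Hsp90b1*, *Manf* and *Creld2* of all 6 mice. Of the 34, 2 passed without mouse 19, 1 without mouse 20, 2 without mouse 21, 5 with library totals and 0 with the spread of the 4 male groups, and DESeq2 called 18.

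Acute phase genes were higher after resolution. Of 31 genes tested 8 rose and 0 fell, 27 had a positive log2 fold change, and the median was 0.36. The number that rose was 14 without mouse 9, 4 without mouse 21 and 4 with the spread of the 4 male groups. *Saa2* (gene 20209, chromosome 7 from 46751833 to 46754313), a serum amyloid A carried on lipoproteins, was between 7.95 and 11.9 CPM in the WDA mice and 80.8, 162 and 72.1 CPM in the Res mice, a log2 difference of 3.40 ± 0.33 (SE, adjusted p = 0.00329). *Saa1*, with which *Saa2* can share reads, was 19.7, 30.0 and 25.1 CPM against 128, 256 and 116 CPM (2.74, adjusted p = 0.00464). *Saa3* rose by 3.07. *Lcn2*, which binds bacterial siderophores, was 7.95, 4.02 and 3.17 CPM against 26.1, 54.4 and 31.7 CPM (2.89, adjusted p = 0.00690), and *Orm2*, an acid glycoprotein, was 9.52, 12.5 and 7.77 CPM against 38.5, 52.5 and 44.6 CPM (2.19, adjusted p = 0.00185). Mouse 8 had the highest Res level of *Saa1*, *Saa2*, *Saa3*, *Lcn2* and *Orm2*. The abundant secreted proteins moved less: haptoglobin *Hp* was 1755, 1881 and 1902 CPM against 3021, 3642 and 3245 CPM (0.84), *Lbp*, the carrier of lipopolysaccharide, rose by 0.63 and complement *C3* by 0.47. *Fgb*, a fibrinogen chain, had a log2 fold change of 0.20 (adjusted p = 0.300). *Saa1*, *Saa2* and *Orm2* kept their call under all 15 alternatives. The coagulation and complement list had a median of -0.02, with 0 of 38 genes higher and 3 lower (7.89%, beside 11.0% of all genes tested). Those lower were *Cfd*, *Ahsg* (-0.52) and *F7* (-0.40).

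Both metallothioneins, small proteins that bind zinc and copper, rose. *Mt2* (gene 17750, chromosome 8 from 94172618 to 94173567) was 13.6, 6.36 and 5.06 CPM in the WDA mice and 198, 143 and 367 CPM in the Res mice, a log2 difference of 4.82 ± 0.47 (SE, adjusted p = 0.00329 in edgeR's test, 2.31e-14 to 0.0264 over the alternatives). *Mt1* was 140.5, 29.3 and 35.2 CPM against 320.0, 255 and 624 CPM (2.55, adjusted p = 0.0380), and the 2 genes can share reads. Mouse 19 had the highest level of both on the WDA diet and mouse 9 after resolution. The metal response element core, searched as TGCACNC on both strands, was in the window of *Mt2*, and in 15.4% of all tested genes with a window. The window of *Mt1* is set at a start that lies inside the annotated gene (chromosome 8 from 94178883 to 94180327). Its match is therefore not counted as upstream of the gene, and its sequence is not shown. The 250 bases before the start of *Mt2* (chr8:94172368-94172617, plus strand) are shown with the matches in capitals, 223 and, on the opposite strand, 50 bases before the start.
Mt2: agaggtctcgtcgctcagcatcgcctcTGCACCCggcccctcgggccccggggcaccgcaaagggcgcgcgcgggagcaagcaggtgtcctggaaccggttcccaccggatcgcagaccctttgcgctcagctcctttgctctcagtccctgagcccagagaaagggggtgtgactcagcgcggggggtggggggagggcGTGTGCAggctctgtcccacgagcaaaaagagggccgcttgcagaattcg

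In the metal list of 23 genes 3 rose and 0 fell (13%, beside 11.0% of all genes tested). Besides *Mt1* and *Mt2*, *Slc30a10*, a manganese exporter, rose by 0.66. *Hamp*, which encodes the iron hormone hepcidin, was 419, 106 and 364 CPM against 566, 590.4 and 904 CPM without passing (1.21, adjusted p = 0.110). 

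Of the 40 genes called under all 15 alternatives several belonged to no list and are described for that reason. *Clpx*, the chaperone subunit of a mitochondrial protease, was 181, 149.6 and 123 CPM in the WDA mice and 561, 427 and 388 CPM in the Res mice (1.60). *Fkbp5*, a cochaperone of the glucocorticoid receptor, was 33.2, 40.4 and 32.5 CPM against 116, 78.8 and 93.7 CPM (1.44). *Ces1b*, a carboxylesterase, was 33.0, 25.4 and 29.5 CPM against 98.2, 113 and 94.3 CPM (1.80). All 3 showed every Res mouse far above every WDA mouse. *Slc3a1*, which encodes a subunit of a cystine transporter, rose from 10.4, 12.8 and 10.8 CPM to 33.1, 37.9 and 63.9 CPM (1.99), and *Asic5*, a cation channel, from 2.70, 2.90 and 3.22 CPM to 14, 12.1 and 12.4 CPM (2.12). On the other side, the water channel *Aqp4* was 26.6, 21.2 and 28.3 CPM against 5.89, 3.72 and 6.67 CPM (-2.22), and *Phlda1* was 41.4, 76.3 and 47.5 CPM against 10.6, 12.0 and 13.3 CPM (-2.20). The laminin chain *Lamb3* (-1.69), the oxygen-sensing hydroxylase *Egln3* (-0.81) and *Psmd8*, a subunit of the proteasome (-0.66), also fell. The largest adjusted p of these 10 genes in edgeR's test was 0.00862.

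Genes of fat synthesis moved both ways: the desaturases *Scd1* and *Fads2* and the elongase *Elovl6* fell, and *Fasn* and *Acacb* rose. *Scd1*, the stearoyl-CoA desaturase, was 9599, 10457 and 12627 CPM in the WDA mice and 1174, 1376 and 2338 CPM in the Res mice, a log2 difference of -2.74 ± 0.27 (SE). Mouse 9 was the highest of the Res mice and still far below every WDA mouse. *Elovl6*, an elongase, was 79.7, 85.5 and 103 CPM against 45.1, 37.0 and 39.9 CPM (-1.14, adjusted p = 0.00388). *Fads2*, a further desaturase, fell by 0.85, and *Srebf1*, the transcription factor of the pathway, was 61.7, 58.5 and 58.5 CPM against 24.2, 32.1 and 41.2 CPM (-0.87, adjusted p = 0.0217). *Fasn*, fatty acid synthase, was instead higher (72.1, 65.0 and 69.0 CPM against 99.9, 116 and 101 CPM, 0.62, adjusted p = 0.0104), as was the mitochondrial acetyl-CoA carboxylase *Acacb* (0.65), but neither passed without mouse 21 (adjusted p = 0.0621 and 0.109). In all, 2 of 20 lipogenic genes rose and 5 fell, with a median of -0.24. *Plin2*, the coat protein of hepatocyte lipid droplets, did not pass (792, 818 and 845 CPM against 876, 731 and 580.0 CPM, -0.17, adjusted p = 0.487). Of 22 droplet and lipolysis genes 3 fell and 0 rose (13.6%, beside 11.0% of all genes tested). Those that fell were *G0s2*, an inhibitor of lipolysis (-1.43), *Fabp2*, a fatty acid carrier (-1.37), and *Cideb* (-0.62). The median of the 22 was -0.11, and 0.01 with library totals.

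Genes of fatty acid oxidation leaned lower by small amounts: 1 of 36 rose and 7 fell, and 27 had a negative log2 fold change. The median was -0.14 (-0.01 with library totals), and without mouse 21 2 of the 36 passed, both lower. *Ppara*, the nuclear receptor that drives the program, fell (383, 465 and 493 CPM against 311, 293 and 209.9 CPM, -0.72, adjusted p = 0.0331), whereas its target *Cyp4a14* rose (2917, 2817 and 3836 CPM against 7962, 6027 and 4519 CPM, 0.95, adjusted p = 0.0334). *Bdh1*, which forms the ketone body hydroxybutyrate, fell by 0.78, and *Cyp4a32*, whose reads can be split with its relatives, by 0.97. *Cpt1a*, the entry step to mitochondria, did not pass (-0.29, adjusted p = 0.167).

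Sterol genes separated by function. Of 27 genes of cholesterol synthesis and uptake 6 rose and 2 fell, with a median of 0.31. *Idi1*, which makes the isoprenoid unit, was 7.27, 7.08 and 7.02 CPM in the WDA mice and 19.4, 13 and 20.1 CPM in the Res mice (1.30, standard error 0.17, adjusted p = 0.00747). The 3 WDA mice differed little, and mouse 8 was the lowest of the Res mice. *Cyp51*, lanosterol demethylase, was 10.7, 12.2 and 9.67 CPM against 22.0, 18.7 and 19.7 CPM (0.89, adjusted p = 0.00801). The sterol reductases *Tm7sf2* (0.82) and *Dhcr7* (0.44) and the transcription factor *Srebf2* (0.57) rose, while *Acat2* (-0.45) fell. The list of LXR targets and sterol efflux went the other way, with 5 of 14 genes lower and 1 higher, and a median of -0.28. *Abcg5*, which forms with ABCG8 the pump that moves sterols into bile, was 148, 213 and 183 CPM against 55.8, 50.9 and 80.9 CPM (-1.54, standard error 0.20, adjusted p = 0.00670), and *Abcg8* was 146, 167 and 129 CPM against 68.4, 64.8 and 94.1 CPM (-0.96). *Apoe* fell by 0.64. *Nr1h3*, the gene of LXR alpha, was 73.6, 77.9 and 80.5 CPM against 60.8, 65.2 and 63.3 CPM, not overlapping but not past the threshold (-0.29, adjusted p = 0.0545), and *Abca1*, an LXR target that loads HDL, had a log2 fold change of 0.27 (adjusted p = 0.302).

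Some lipoprotein and bile acid genes were lower. Without mouse 21, 0 genes of these lists passed, and of the lipoprotein genes 0 also without mouse 19 or 20. *Apoa4*, an apolipoprotein induced by fat in the liver, was 5903, 5412 and 4368 CPM on the WDA diet and 1255, 806 and 2108 CPM after resolution (-1.91, adjusted p = 0.0133). Hepatic lipase *Lipc* (-0.75) and *Apoc2* (-0.68) were also among the 4 of 20 lipoprotein genes that fell, and *Apob* did not pass (-0.23, adjusted p = 0.356). *Cyp7a1*, the rate-limiting enzyme of bile acid synthesis, was 295, 284 and 328 CPM against 194, 184 and 145 CPM (-0.79, standard error 0.13, adjusted p = 0.0119). Mouse 9 was the lowest. Of 18 synthesis genes 4 fell and 1 rose, and of 14 transporters 5 fell and 0 rose. *Slc22a7*, an organic anion transporter, showed the largest fall (45.8, 34.8 and 40.5 CPM against 11.6, 6.95 and 3.13 CPM, -2.49, adjusted p = 0.010), followed by the bile salt and drug carriers *Slco1b2* (-1.12), *Abcg2* (-0.79) and *Slc10a1* (-0.72). *Abcb11*, the bile salt export pump, did not pass (-0.38, adjusted p = 0.0624).

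Alcohol-oxidizing enzymes were lower after resolution: 5 of 16 genes fell, 0 rose, and the median was -0.24 (-0.12 with library totals). Without mouse 21, 1 of the 16 passed, and with the spread of the 4 male groups 0 did. *Adh1*, the main hepatic alcohol dehydrogenase, was 1733, 1679.7 and 1737 CPM in the WDA mice and 792, 786 and 917 CPM in the Res mice (-1.05, standard error 0.11, adjusted p = 0.00357). Levels varied little within either group. *Aldh3a2*, a fatty aldehyde dehydrogenase, was 829, 843 and 874 CPM against a range of 383 to 531 CPM (-0.90, adjusted p = 0.010). *Adh4* (-0.71), *Aldh1a7* (-0.66) and *Adh5* (-0.35) also fell. *Aldh2*, the mitochondrial acetaldehyde dehydrogenase, had a log2 fold change of -0.11 (adjusted p = 0.532, 0.02 with library totals). *Cyp2e1*, the alcohol-inducible P450, was 8719, 7284 and 8522 CPM against 8759.7, 8839 and 4612 CPM, so its log2 fold change of -0.14 (adjusted p = 0.716) was 0.12 without mouse 9. Of 34 genes of P450 families 1 and 2, 4 fell and 0 rose (11.8%, beside 11.0% of all genes tested, and 0 without mouse 21), with *Cyp2a22* at -1.25, and of 6 genes of family 3, 2 rose. In the glutathione list of 39 genes 3 rose and 6 fell. *Gsta2* was 9.58, 7.81 and 10.1 CPM against 27.2, 28.2 and 58.9 CPM (2.06, adjusted p = 0.010), and *Gstm4* was 60.9, 63.4 and 60.3 CPM against 31.1, 36.0 and 33.7 CPM (-0.87, adjusted p = 0.00343).

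Glucose and amino acid metabolism held calls in both directions. Of 31 genes of glycolysis and gluconeogenesis 9 fell and 2 rose (35.5%, beside 11.0% of all genes tested), with a median of -0.25 (-0.13 with library totals). Without mouse 21, 1 of the 31 passed, and it was lower. With library totals 2 fell and 1 rose, and with the spread of the 4 male groups 0 passed. *Slc2a2*, the hepatocyte glucose transporter GLUT2, was 292, 290.3 and 339.7 CPM in the WDA mice and 141, 149 and 133 CPM in the Res mice (-1.12, standard error 0.10, adjusted p = 0.00239). Glycogen synthase *Gys2* (-0.80), fructose bisphosphatase *Fbp1* (-0.73), ketohexokinase *Khk* (-0.60) and *Gapdh* (-0.54) fell, while *Tkfc* (0.81) and *Hk1* (0.74) rose. *Pck1*, of gluconeogenesis, did not pass (-0.37, adjusted p = 0.194). Among 43 genes of amino acid catabolism and the urea cycle 2 rose and 6 fell (18.6%, beside 11.0% of all genes tested). Without mouse 21, 1 of the 43 rose and 1 fell. *Gldc*, which cleaves glycine, was 158, 162 and 148 CPM against 345, 345 and 336 CPM (1.13, standard error 0.09, adjusted p = 0.00133), a very small spread in both groups. *Hal*, histidase, rose by 0.60, and *Psat1*, of serine synthesis, fell by 2.43 with mouse 21 (1.73 CPM) close to the Res mice (0.583 to 1.57 CPM). *Oat*, ornithine aminotransferase, was 1923, 2012 and 2405 CPM against 1335, 1183 and 861 CPM (-0.91, adjusted p = 0.0216).

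Single genes of growth hormone signaling and of sex-biased expression changed. Of 24 insulin and growth hormone genes 3 rose and 3 fell, with a median of 0.09. *Socs2*, a feedback inhibitor of the growth hormone receptor, was 5.47, 5.02 and 5.64 CPM in the WDA mice and 29.6, 13.1 and 27.2 CPM in the Res mice (2.11, standard error 0.29, adjusted p = 0.00763), and *Lepr*, the leptin receptor, was 86.1, 126 and 104 CPM against 25.1, 9.24 and 37.5 CPM (-2.14, adjusted p = 0.0208). *Enho* rose by 1.40, and *Igf1* did not pass (0.22, adjusted p = 0.353). Of 20 male-biased liver genes 6 fell and 1 rose, with *Hsd3b5*, a steroid-metabolizing enzyme, at 52.9, 42.8 and 27.5 CPM against 8.92, 7.11 and 1.16 CPM (-2.86), *Nat8f5* at 34.3, 38.2 and 45.1 CPM against 7.58, 7.11 and 7.22 CPM (-2.42), and *Serpina12* at -1.70. The median of the list was -0.16 with all mice and 0.13 without mouse 9. Of 16 female-biased genes 2 rose and 0 fell (12.5%, beside 11.0% of all genes tested called): *Cux2*, a transcription factor, was 0.451, 0.558 and 0.173 CPM against 4.26, 0.985 and 7.37 CPM (3.39, adjusted p = 0.0287), and *Nipal1* was 5.69, 2.12 and 2.88 CPM against 16.3, 9.30 and 30.2 CPM (2.38, adjusted p = 0.0230). Mouse 9 had the lowest *Hsd3b5* and the highest *Cux2* and *Nipal1*.

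Genes of blood-derived immune cells were higher, at low levels. Of 17 lymphocyte and neutrophil genes 8 rose and 1 fell, and the median was 1.18 (1.34 without mouse 9). *Ccl5*, a chemokine of T and NK cells, was 1.52, 2.73 and 0.921 CPM in the WDA mice and 4.61, 5.31 and 5.05 CPM in the Res mice (1.53, standard error 0.34, adjusted p = 0.0304). The T cell genes *Cd3e* (1.79) and *Cd8a* (1.94), the NK cell gene *Nkg7* (1.66) and the neutrophil genes *S100a8* (2.06), *S100a9* (2.32) and *Csf3r* (0.92) rose, but *Cd3e*, *Cd8a*, *S100a8* and *S100a9* stayed below 4 CPM in every mouse. *Cd4*, the co-receptor of helper T cells, fell from 4.73, 4.74 and 4.43 CPM to 1.75, 1.81 and 1.62 CPM (-1.42, adjusted p = 0.00636). All 8 tested genes of MHC class II presentation were higher and 4 passed, with a median of 0.87: *H2-Aa* was 42.2, 43.1 and 31.5 CPM against 74.8, 89.4 and 74.4 CPM (1.03, standard error 0.14, adjusted p = 0.00756), and *Cd74*, the invariant chain, was 84.6, 96.2 and 76.9 CPM against 126, 179 and 141 CPM (0.79, adjusted p = 0.0179). Among 23 genes of scar- and lipid-associated macrophages 4 rose and 0 fell, with a median of 0.81. *Clec7a*, the receptor dectin-1, was 8.51, 7.64 and 4.72 CPM against 18.1, 14.6 and 15.6 CPM (1.21, adjusted p = 0.0145), *Itgax*, which encodes CD11c, was 3.10, 0.837 and 0.691 CPM against 5.60, 4.65 and 7.83 CPM (1.96, adjusted p = 0.0451), and *Ccr2* rose by 1.40. The fourth, *Chil3*, had at most 3 counts in every WDA mouse, and no fold is given. *Gpnmb* (14, 1.84 and 1.21 CPM against 49.3, 13.1 and 45.1 CPM) and *Trem2* (1.88) did not pass (adjusted p = 0.0725 and 0.0822). Without mouse 21, 1 of these 23 genes, 1 of the 8 MHC genes and 1 of the 17 lymphocyte and neutrophil genes passed, the last being lower.

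The list of resident Kupffer cell genes gave 1 rise among 17 (*Ptprc*, CD45, 0.54), or 5.88%, beside 11.0% of all genes tested. Without mouse 9, whose *Clec4f*, *Vsig4* and *Cd5l* were the lowest of the 6 mice, 7 rose. The interferon list of 34 genes held 4 rises and 1 fall (14.7%, beside 11.0% of all genes tested). The rises were led by the GTPases *Tgtp1* (2.82, 3.12 and 3.11 CPM against 5.37, 33.9 and 12.0 CPM), *Igtp* (1.15) and *Irgm2* (0.95), with mouse 8 the highest in all 3. *Irf7* (0.07) did not pass. Of 21 endothelial genes 4 fell, among them *Ehd3* (81.5, 96.6 and 107 CPM against 51.4, 54.2 and 33.8 CPM, -1.03) and *Gpr182* (-0.80), and *Lyve1*, the hyaluronan receptor of sinusoids, rose from at most 13.2 CPM to 25.0, 21.6 and 23.0 CPM (1.0, adjusted p = 0.00636).

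No gene of the fibrous matrix passed. Of 42 genes of the extracellular matrix and stellate cells 0 were called, and the median of 0.40 was 0.02 without mouse 9. *Col1a1*, the main fibrillar collagen, was 13.6, 2.12 and 3.11 CPM in the WDA mice and 6.77, 7.77 and 14.8 CPM in the Res mice (0.65, standard error 0.63, adjusted p = 0.514), so that WDA mouse 19 alone covered most of the range. *Acta2*, smooth muscle actin of activated stellate cells, was 1.86, 0.446 and 0.921 CPM against 1.98, 1.97 and 9.19 CPM (2.03, adjusted p = 0.103), and *Col3a1* had a log2 fold change of -0.03 (adjusted p = 0.975). Among 18 matrix proteases and inhibitors 0 were called, with a median of 0.58 and of -0.16 without mouse 9. *Mmp12*, the macrophage elastase, was 5.86, 1.56 and 0.576 CPM against 28.0, 8.97 and 10.9 CPM (2.57, adjusted p = 0.0543), *Mmp9* had a log2 fold change of 0.93 (adjusted p = 0.114), and *Timp1* was at 0.115 to 0.859 CPM and was not tested. DESeq2 called 2 matrix genes and 2 protease genes, all higher. In the cholangiocyte list 1 of 11 genes rose (9.09%, beside 11.0% of all genes tested), and the median turned from 0.93 to -0.40 without mouse 9. The gene that rose was *Sox9* (3.04, 1.79 and 1.73 CPM against 6.53, 6.29 and 12.5 CPM, 1.95, adjusted p = 0.0154). The inflammatory genes *Tgfb1* (0.32, adjusted p = 0.150), *Tnf* (1.51, 0.0558) and *Ccl2* (0.93, 0.0820) did not pass. Their levels were higher in each Res mouse than in any WDA mouse, but 36.1% of all genes tested had groups without overlap in either direction.

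**Figure D3:**
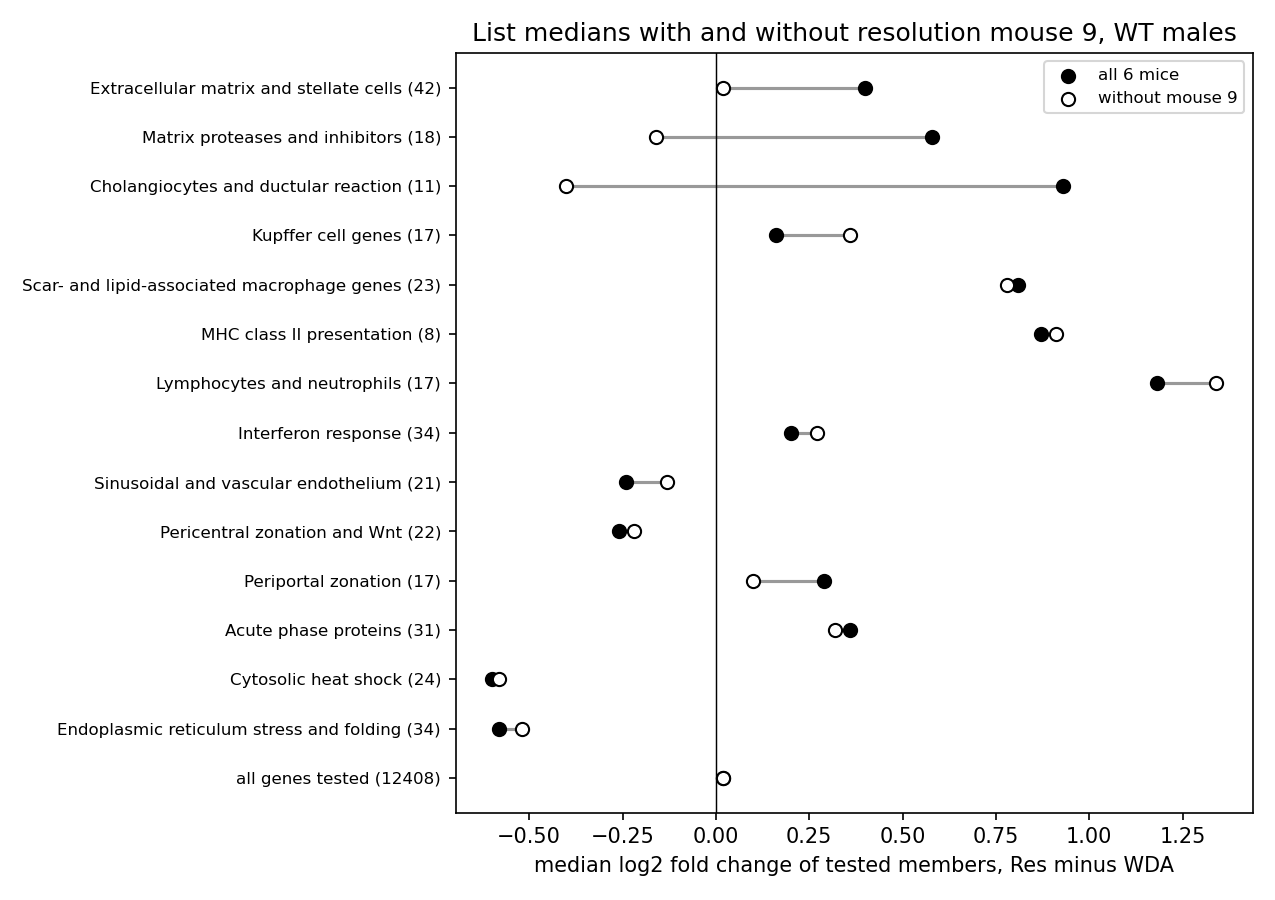
Median log2 fold change of the tested members of lists of matrix, immune, duct and other genes (x axis, Res minus WDA, number of members in brackets) with all 6 mice (filled) and without Res mouse 9 (open). The matrix, protease and cholangiocyte medians fall from 0.40, 0.58 and 0.93 to 0.02, -0.16 and -0.40, whereas those of MHC class II (0.87 and 0.91) and of lymphocytes and neutrophils (1.18 and 1.34) do not.

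Called shares of the remaining lists stand beside 11.0% over all genes tested. Of 27 immediate early and stress factors 2 rose (*Cdkn1a* and *Btg1*) and 4 fell (22.2% called, median -0.23), among them *Dusp6*, a phosphatase that turns off ERK (42.9, 40.9 and 47.8 CPM against 19.9, 18.4 and 17 CPM, -1.25, standard error 0.10, adjusted p = 0.00175), and the nuclear receptor *Nr4a1* (-1.46). *Fos* (-1.41, adjusted p = 0.0618) and *Egr1* (0.35, 0.576) did not pass. Of 22 pericentral genes 4 fell and 0 rose (18.2%), with a median of -0.26, and of 17 periportal genes 2 rose (*Gldc* and *Hal*) and 0 fell (11.8%). The pericentral glutamine synthetase *Glul* was 1016, 1071 and 1034 CPM against 1194, 1245 and 573 CPM and did not pass, its log2 fold change of -0.05 being 0.25 without mouse 9. Of 35 splicing factors 4 rose and 1 fell (14.3%), with *Hnrnpdl* at 35.3, 29.7 and 35.2 CPM against 59.2, 53.5 and 61.1 CPM (0.79, adjusted p = 0.00671) and the cold-inducible *Cirbp* at 1.09. Of 29 genes in the list of actin, tubulin and other cytoskeletal genes 3 fell (10.3%), *S100a10* at -0.69, *Tubb4b* at -0.52 and *Myl6* at -0.41. Of 19 retinoid genes 2 fell and 1 rose (15.8%), the last being *Rdh11* (0.80), and of 22 sulfotransferases and glucuronosyltransferases 3 fell and 1 rose (18.2%). Of 20 cell cycle genes 2 rose (10%), with *Rrm2* at 1.08 and *Mki67* not past the threshold (0.59, adjusted p = 0.244).

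**Figure D4:**
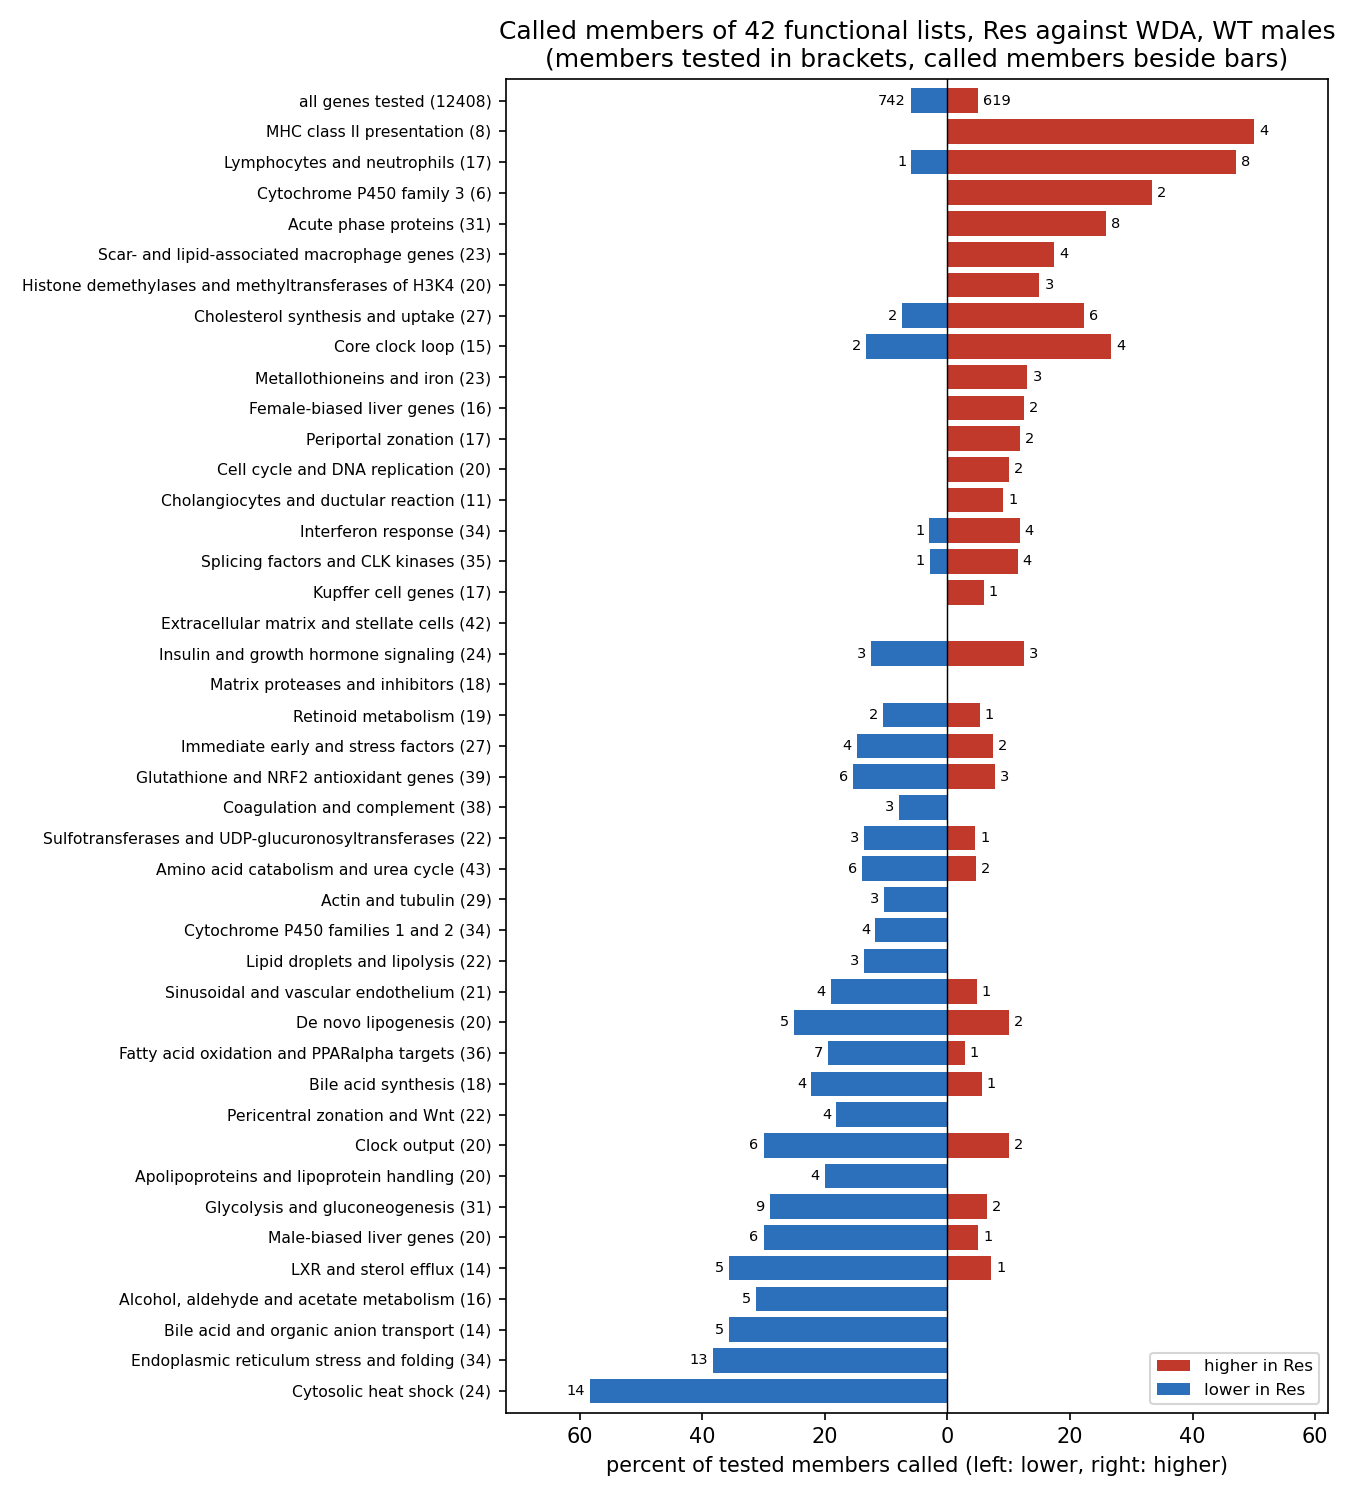
Percent of tested members called higher (right, red) or lower (left, blue) in each of 42 functional lists, with the number of members tested in brackets and the called members beside the bars; the top bar shows all 12408 genes. Cytosolic heat shock (14 of 24 lower) and endoplasmic reticulum folding (13 of 34 lower) reach far to the left, and MHC class II (4 of 8 higher) and lymphocytes and neutrophils (8 of 17 higher) far to the right.

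The stage difference was then set beside that in 2 further sets of 6 *Kdm5b* fl/fl mice that share no library with these but were split by stage and experiment in the same way. One set was males labelled KO, which had AAV8-CMV-Cre on WDA or AAV-CMV-Cre in resolution, with Cre under the general CMV promoter. The other was WT females with the same control vectors as the WT males. In the males labelled KO, called KO males here, edgeR called 0 of 12747 genes, with 819 at an unadjusted p under 0.05, and DESeq2 called 79. In WT females edgeR called 0 of 12603 genes, with 1716 at an unadjusted p under 0.05, and DESeq2 called 404. *Kdm5b* was at 20.6 to 22.0 CPM in the WDA males labelled KO, close to the WT level, and at 7.94 to 17.3 CPM in those after resolution, and counts over a whole gene do not show floxed exons. Of the genes that fell in WT males, 95.5% of 740 had a negative log2 fold change in KO males and 84.6% of 736 in WT females, and of those that rose, 84.5% of 614 and 77.6% of 602 had a positive one. Over all genes the share with the same sign was 66.4% and 65.7%.

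The groups of genes did not all do so. *Scd1* had log2 fold changes of -2.74 in WT males, -2.98 in KO males and -4.02 in WT females, *Abcg5* of -1.54, -1.82 and -1.74, *Idi1* of 1.30, 1.52 and 2.42, and *Dbp* of -4.21, -3.78 and -2.40. *Dbp* was high in 1 of 3 WDA females (35.5 CPM against 3.47 and 5.31) and at 11.8, 50.2 and 68.4 CPM in the WDA KO males, while all Res mice were at 4.48 CPM or below. Other clock values had the opposite sign in the females: *Npas2* had 2.57, 0.61 and -0.30, *Usp2* -1.35, -1.33 and 0.53, and the clock output list a median of -0.55, -0.68 and 0.11. For *Npas2* the difference between the sexes did not pass (2.85, adjusted p = 0.307 in edgeR's interaction test). The median of the cytosolic heat shock list stayed negative, at -0.60 in WT males, -0.24 in KO males and -0.18 in WT females. In KO males 4 of its 24 genes were positive, and in WT females 6, among them *Hsph1* (-1.49, -0.37 and 0.61). The endoplasmic reticulum list had a median of -0.58, -0.17 and 0.20, with *Hsp90b1* at -0.99, -0.01 and 0.41. For macrophage and MHC class II genes the signs were opposite. The scar-associated list had a positive log2 fold change for 20 of 23 genes in WT males, 1 of 22 in KO males and 0 of 22 in WT females, and MHC class II for 8 of 8, 0 of 8 and 0 of 8. Single WDA mice stood high in the other groups. *Itgax* was 31.2 CPM in WDA KO male 17 against 2.59 and 5.60 CPM in the others of its group, and 41.8 CPM in WDA female 7 against 0.917 and 1.58 CPM. For *Itgax* the stage difference between the sexes was 3.11 on the log2 scale and did not pass (adjusted p = 0.725, edgeR's interaction test).

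**Figure D5:**
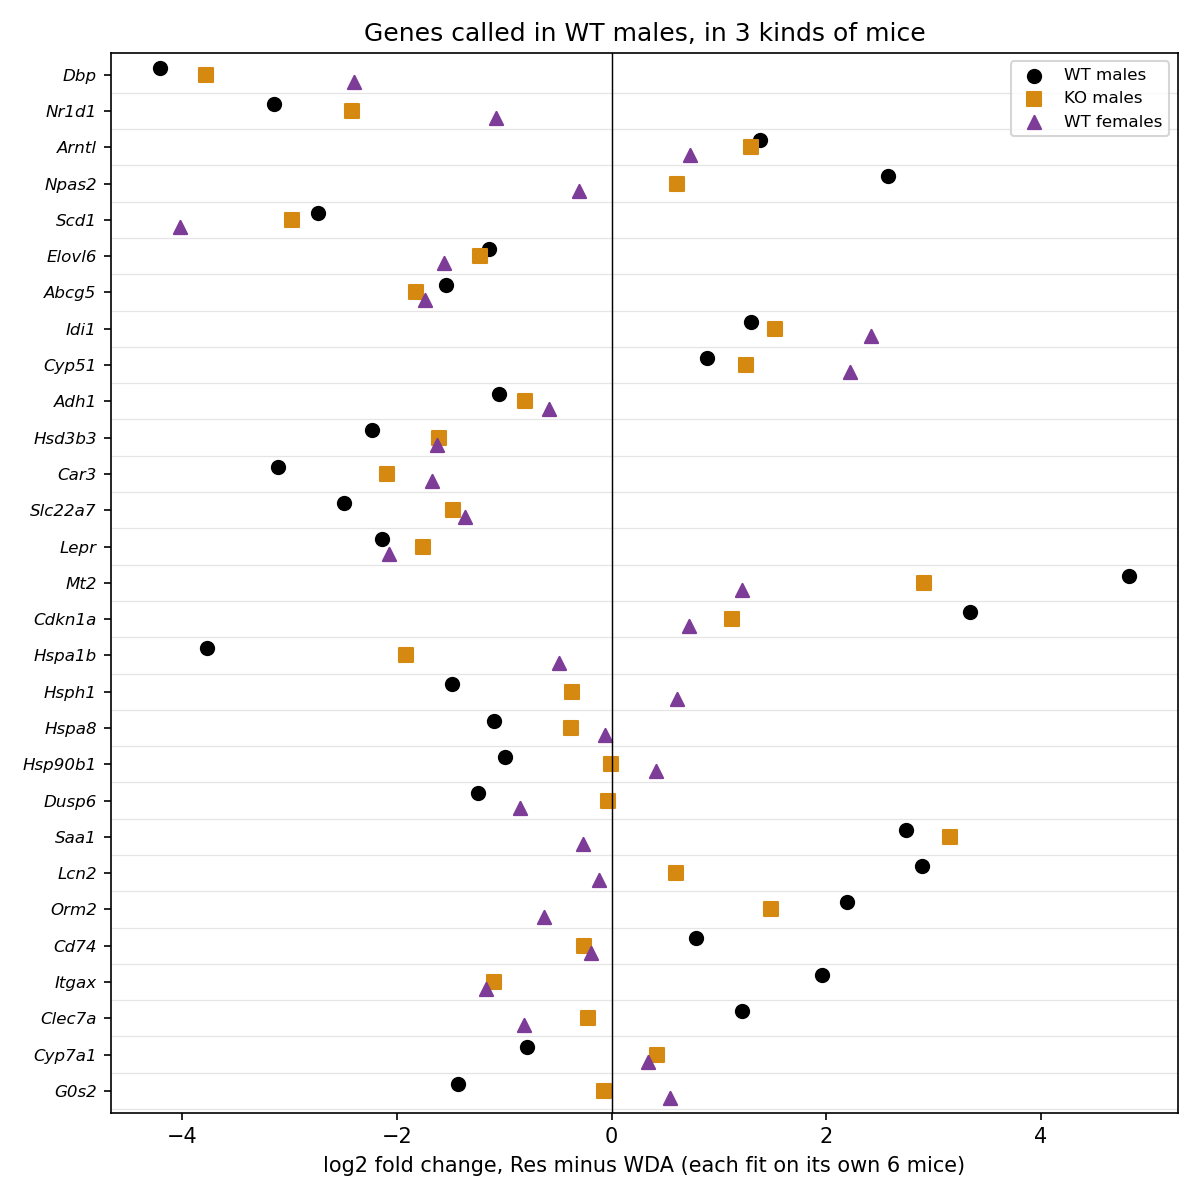
Log2 fold change, Res minus WDA, of selected genes called in WT males (circles), beside KO males (squares) and WT females (triangles), each fitted on its own 6 mice. *Dbp*, *Scd1*, *Abcg5* and *Idi1* lie on the same side of 0 in all 3, whereas *Npas2* (2.57, 0.61 and -0.30), *Orm2* (2.19, 1.48 and -0.63) and *Cd74* (0.79, -0.26 and -0.19) do not.

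Tested as an interaction in edgeR over 13152 genes, the stage difference differed between WT males and WT females for 1 gene (0.00760%), *Orm2*, with 1014 genes at an unadjusted p under 0.05. *Orm2* was 31.2, 32.0 and 38.6 CPM in the WDA females and 21.5, 16.4 and 27.7 CPM in the Res females, so that the order was turned compared with the males, and the interaction was 2.80 on the log2 scale (adjusted p = 0.0176). *Saa2* (3.77) and *Saa3* (3.68) followed with an adjusted p of 0.0999 each. The interaction with genotype in males gave 0 of 13107 genes (0%), with 424 at an unadjusted p under 0.05, and DESeq2 called 1, *Dusp6*. *Dusp6* was 33.8, 29.8 and 36.0 CPM in the WDA KO males and 32.6, 32.7 and 32.5 CPM in the Res KO males, an interaction of 1.25 (unadjusted p = 6.83e-06 in edgeR).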

How the data were processed

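RNA of whole liver was sequenced on a BGISEQ instrument, 1 library per mouse. Per the submitters' processing notes HISAT, Bowtie2 and GRCm38.p6 were used; the quantifier is not given in the sources used here. The deposited tables hold estimated counts and FPKM values per gene, made by the authors, and 7.34% and 8.09% of the values in the tables of the male groups were not whole. Estimated counts were rounded, and genes that a table leaves out were set to 0 there. Of 16582 genes with a count in the 6 mice, 16469 matched RefSeq by gene ID.

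Counts were tested in R 4.3.3 with edgeR 4.0.16: filterByExpr with a minimum count of 10, TMM scaling, and the quasi-likelihood test of Res against WDA on these 6 mice, with Benjamini-Hochberg adjustment and a threshold of 0.05. Stage-by-sex and stage-by-genotype interactions were fitted on 12 mice each. Alternatives were DESeq2 1.42.0, RLE and upper quartile scaling, library totals, no filter, a filter of 10 counts or more in every mouse, the spread of the 4 male groups or of all 9 groups, limma 3.58.1 on log2(FPKM + 1), and leaving out each mouse. The steps were checked on simulated counts. The p-values measure the spread between these mice. Levels in KO males and WT females carry the scaling of their own fits. No column of per-sample values was left unused.

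The comparison and the gene lists were chosen with earlier results of these data known. Named genes were *Kdm5b*, the first 2 of each list, up to 3 called members per list with the largest change (mean log2 CPM at least 1, groups not overlapping), the 10 highest and 10 lowest called genes (mean log2 CPM at least 2, groups not overlapping), and up to 5 called genes each way in each interaction. All others, the motifs and the gene families by symbol were chosen after their values were seen. Alternatives for KO males and WT females were added after seeing the data. Some genes of the lists are not reported here.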

Additional observations from a re-analysis of the deposited data

Results flagged for a closer look

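*Orm2*, an acid glycoprotein of the acute phase, had stage differences of opposite sign in WT males and WT females. The stage-by-sex interaction was 2.80 on the log2 scale (edgeR, adjusted p = 0.0176 over 13152 genes). All 3 Res males lay above all 3 WDA males (38.5 to 52.5 against 7.77 to 12.5 CPM), and all 3 Res females lay below all 3 WDA females (16.4 to 27.7 against 31.2 to 38.6 CPM). In the females alone the log2 fold change of -0.63 did not pass (adjusted p = 0.287), and KO males had 1.48 (adjusted p = 0.186). The interaction lost its call when WDA female 5 or 6 or WDA male 19 or 21 was left out.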

How the results depend on the processing

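The 1361 genes changed became 814 with library totals, 636 with limma on FPKM, 354 with the spread of all 9 groups, 90 with that of the 4 male groups, and 148 to 1694 when 1 mouse was left out. The other alternatives (DESeq2 1724, RLE 1357, upper quartile 1341, at least 10 counts in every sample 1307, no filter 1201) stayed within 1.5 times. The 330 genes over 2-fold became 106 with limma, 140 with all 9 groups and 51 with the 4 male groups, and 85 to 395 without 1 mouse. For the sex interaction DESeq2 called 84 genes (38 higher, 46 lower), and leaving out 1 mouse gave 0 to 4, with 0 without females 5 or 6 or males 19 or 21. For the genotype interaction DESeq2 called 1, and leaving out 1 mouse gave 0 to 0. KO males gave 79 with DESeq2 and 0 to 16 without 1 mouse (16 without WDA mouse 17), and WT females 404 and 0 to 15 (15 without WDA mouse 7). The causes were not tested.

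Of 1808 values of called named genes under alternatives, 1294 kept their side of the threshold, 514 lost it and 0 turned sign. The groups did not overlap for any called gene, so leaving out 1 mouse could hardly turn a sign. Among named genes that were not called, 16 turned sign. With library totals *Aldh2* was 0.02, *Cyp1a2* 0.04, *Gclc* 0.05, *Glul* 0.05, *Igfbp1* 0.13, *Nqo1* 0.09 and *Tat* 0.16, with limma *Aldh2* 0.03, *Gclc* 0.06 and *Nqo1* 0.04, and with upper quartile scaling *Tat* 0.03. With 1 mouse left out in turn, *Clec4f* was -0.47 to 0.18, *Clk1* -0.01 to 0.17, *Cyp1a2* -0.25 to 0.22, *Cyp2e1* -0.29 to 0.12, *Egr1* -0.05 to 0.71, *Elovl3* -0.50 to 0.25, *Epcam* -1.12 to 1.75, *Glul* -0.24 to 0.25 and *Vsig4* -0.47 to 0.17, each turned without mouse 9. *Igfbp1* was -1.08 to 0.48, *Irf7* -0.07 to 0.19, *Nqo1* -0.23 to 0.11, *Tat* -0.61 to 0.22 and *Cyp3a11* -0.06 to 0.38, turned without other mice. Medians of 11 lists turned sign under an alternative, among them glutathione genes (-0.00, and 0.13 with library totals), coagulation (-0.02 and 0.11), amino acid catabolism (-0.06 and 0.08) and cell cycle (-0.06 and 0.07).

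No paired analysis was possible because the 2 groups share no mouse number. Rises of genes below about 1 CPM rest on few counts per library.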

Other observations

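Of 12 gene families defined by symbol, several shifted mostly 1 way by small amounts, beside 4.99% of all genes tested called higher and 5.98% lower. All genes tested also shifted with their level. Over quartiles of the mean level, from the lowest to the highest, the median log2 fold change was 0.27, 0.09, -0.00 and -0.13. In the highest quartile 428 of 3102 genes fell. The families were not compared with genes of the same level, so a shift particular to a family was not tested. Of 96 subunits of oxidative phosphorylation 88 had a negative log2 fold change and 14 fell, with a median of -0.22 (-0.10 with library totals). Of 38 proteasome genes 37 were negative and 5 fell (median -0.30, and -0.17 with library totals), and all 9 coatomer (COPI) genes, which coat vesicles between the Golgi and the endoplasmic reticulum, were negative with 4 called (-0.33 and -0.21). Of 92 cytosolic ribosomal protein genes 71 were negative and 4 fell, a share below that of all genes, and their median of -0.12 was 0.01 with library totals. Of 78 mitochondrial ribosomal protein genes 61 were negative and 6 fell (-0.16 and -0.03). Zinc finger genes named Zfp went the other way, with 223 of 327 positive, 12 higher and 2 lower (0.13 and 0.26), again a share called below that of all genes. Of 22 major urinary protein genes, among which reads can be split, 1 fell, and the median of -0.38 was -0.00 without mouse 9. Other families were divided: 125 of 242 solute carriers were positive with 20 higher and 22 lower, 8 of 14 carboxylesterases were positive with 1 higher and 2 lower, 10 of 17 Serpina genes with 2 higher and 1 lower, and 27 of 68 cytochromes P450 with 8 higher and 9 lower. Of 58 genes named LOC 51 were positive and 13 rose (0.52 and 0.65).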
